A study of Mus musculus with 8 samples.

Results

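The insulin-like growth factor (IGF) axis was followed through the cells of mouse periosteum by 10 genes, which were chosen by symbol from the 32285 genes listed in the count matrices. They comprise the ligand gene Igf1, the receptor genes Igf1r, Igf2r and Insr, and the binding protein genes Igfbp2, Igfbp3, Igfbp4, Igfbp5, Igfbp6 and Igfbp7. All 10 were found, and the rule uses their symbols alone. Their molecules were counted in barcodes that passed a filter (above 500 genes, below 8000 genes, mitochondrial share below 20%), and were summed by cell class and diet.

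Periosteal cells had been released with collagenase and dispase from the left femurs and tibias of male C57BL/6J mice, 16 weeks old, kept on normal diet (ND) or high-fat diet (HFD) chow, and captured in droplets (10X Chromium, single-cell RNA sequencing). No gene was altered in either group. The labels list 4 samples per diet, but the counts form 1 matrix per diet, with the mice pooled and no key from barcode to animal. Each diet thus counts as 1 library, every difference below compares 2 libraries with no replicate check, and no test between diets could be made.

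IGF1 is a secreted peptide made by the liver and locally by connective tissue, and it signals through the receptor tyrosine kinase IGF1R to growth and survival pathways. INSR is the closely related insulin receptor, and IGF2R, the cation-independent mannose 6-phosphate receptor, carries IGF2 and lysosomal enzymes into the cell without kinase activity of its own. IGF binding proteins hold the ligands outside the cell, so that the ligand, its receptors and its carriers can be made by different cells of one tissue. In bone, IGF1 is known as a growth factor for osteoblasts and their progenitors.

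The ND library held 48558889 and the HFD library 49940976 unique molecular identifiers (UMIs, each a counted RNA molecule). The filter kept 6029 of 6314 ND barcodes, with a median of 4610 UMIs, and 6224 of 6636 HFD barcodes, with a median of 4823.5 UMIs. The libraries shared 15 barcodes, 14 of them among kept cells. Classes were rebuilt by clustering and named "-like" from marker genes, so that they may differ from the cell types named by the study. Mesenchymal-like cells (Pdgfra, Col1a1 and Prrx1 among their markers) numbered 409 in ND and 670 in HFD, endothelial-like cells 116 and 231, and pericyte-like cells 31 and 59. Neutrophil-like cells (2635 and 2630) and B cell-like cells (1517 and 1473) were the most numerous. Macrophage/monocyte-like cells numbered 451 and 418. A further 326 ND and 297 HFD cells stayed unnamed. A level is given as UMIs per 1000000 UMIs of a class (UPM), with an exact Poisson 95% interval. These intervals cover counting error only, and where no UMI was found the upper limit is 3 UMIs. Levels of different genes were not set against each other, because molecules were counted at the 3′ end. Of the 10 genes, 8 were among the 3000 variable genes on which cells were clustered, so that levels between classes are a description.

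The DNA before the start sites is shown for genes whose cell class patterns are described below. They are Igfbp4, counted in most classes, Igfbp3 and Igfbp7, counted in endothelial-like cells, and Igf2r, whose level differed between diets in mesenchymal-like cells. Each run is the 250 bases before the RefSeq start site (build GRCm38.p6), written 5′ to 3′ on the strand of the gene. Capitals mark TATAAA or GGGCGG, the core of the GC box, on either strand. The Igfbp4 promoter lies on the plus strand at chr11:99040994-99041243, the Igfbp3 promoter on the minus strand at chr11:7213924-7214173, the Igfbp7 promoter on the minus strand at chr5:77408046-77408295, and the Igf2r promoter on the minus strand at chr17:12769707-12769956.
Igfbp4: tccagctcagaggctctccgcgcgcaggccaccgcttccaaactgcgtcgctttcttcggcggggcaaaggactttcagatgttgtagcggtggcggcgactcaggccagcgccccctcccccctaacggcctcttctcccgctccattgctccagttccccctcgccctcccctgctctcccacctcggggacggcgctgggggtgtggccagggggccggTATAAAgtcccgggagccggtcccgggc
Igfbp3: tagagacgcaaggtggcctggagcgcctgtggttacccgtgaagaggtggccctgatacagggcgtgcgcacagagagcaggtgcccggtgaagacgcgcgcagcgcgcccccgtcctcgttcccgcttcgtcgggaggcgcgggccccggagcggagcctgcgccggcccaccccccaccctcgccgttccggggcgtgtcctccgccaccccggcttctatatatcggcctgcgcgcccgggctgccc
Igfbp7: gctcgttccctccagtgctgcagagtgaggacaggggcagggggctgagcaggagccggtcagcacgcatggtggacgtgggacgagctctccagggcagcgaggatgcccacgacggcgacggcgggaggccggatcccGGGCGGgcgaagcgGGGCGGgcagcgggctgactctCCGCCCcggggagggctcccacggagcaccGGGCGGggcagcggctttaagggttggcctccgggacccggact
Igf2r: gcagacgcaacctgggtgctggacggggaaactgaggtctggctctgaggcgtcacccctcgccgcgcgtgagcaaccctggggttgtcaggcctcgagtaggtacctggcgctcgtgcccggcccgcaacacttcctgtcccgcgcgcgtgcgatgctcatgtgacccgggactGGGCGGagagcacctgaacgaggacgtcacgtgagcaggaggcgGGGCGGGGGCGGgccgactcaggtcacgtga
The Igfbp4 run held 1 TATAAA, 28 bases before the start, and no GGGCGG. The Igfbp7 run held 4 and the Igf2r run 3 GGGCGG, while the Igfbp3 run held neither motif. Over 32851 promoters of the same length, 12.4% held TATAAA and 32.7% held GGGCGG. A match is a description of the letters and not of a bound factor.

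On the genome (GRCm38), Igfbp2 (chromosome 1, 72824503 to 72852474, plus strand) and Igfbp5 (72857932 to 72874884, minus strand) point toward each other with 5457 bases and no other annotated gene between them. Their levels across classes are given separately below. Igf2r (chromosome 17, 12682406 to 12769664, minus strand) overlaps the antisense transcript Airn, Igf1 overlaps Igf1os, and Igfbp7 overlaps Polr2b and an antisense gene. The sources do not state if strand was used in counting.

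The ligand gene was counted mostly in mesenchymal-like cells. Igf1 stood at 381 UPM (364 to 399) in ND and 275 UPM (262 to 287) in HFD mesenchymal-like cells, which held 90.7% and 89.1% of all its UMIs in kept cells. Macrophage/monocyte-like cells came next, with 19.8 UPM (16.4 to 23.7) in ND and 31.3 UPM (26.8 to 36.3) in HFD. Pericyte-like, dendritic-like and basophil/mast-like cells had no Igf1 UMI in either library, which allows up to 9.50 UPM in ND and 5.33 UPM in HFD pericyte-like cells. The intervals of mesenchymal-like and macrophage/monocyte-like cells did not overlap in either library, whereas most classes further down the order overlapped.

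Within both of these classes Igf1 was uneven. Among the 3 macrophage/monocyte-like clusters it was concentrated in the one led by C1qa, C1qc and C1qb, complement genes typical of resident macrophages, at 90.4 UPM (74.4 to 109) in ND and 165 UPM (141 to 193) in HFD. In the cluster led by Ms4a6c and F13a1 it stood at 1.40 and 0.240 UPM, and in the one led by Ccl2 and Wfdc17 at 2.48 and 15.1 UPM, the last from 5 UMIs in 1 cell. The clusters were named by their leading genes after their values had been seen. Mesenchymal-like cells, clustered again, gave a Pi16/Dpp4 fibroblast-like subcluster (211 ND and 325 HFD cells), a tenocyte-like subcluster (95 and 158) and a Postn-high osteogenic-like subcluster (58 and 128). A further 45 ND and 59 HFD cells stayed in 2 unnamed subclusters. The Pi16/Dpp4 subcluster had Ccl11 among its leading genes, and a finer clustering described below named Pi16/Dpp4 and Col15a1/Ccl11 fibroblast-like cells apart. Unless the finer clustering is named, Pi16/Dpp4 means the larger, undivided subcluster. The osteogenic-like subcluster had the osteoblast markers Ibsp, Alpl and Bglap among its leading genes. In HFD its Igf1 level (170.5 UPM, 147 to 197) overlapped that of the C1qa, C1qc and C1qb cluster.

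**Figure D1:**
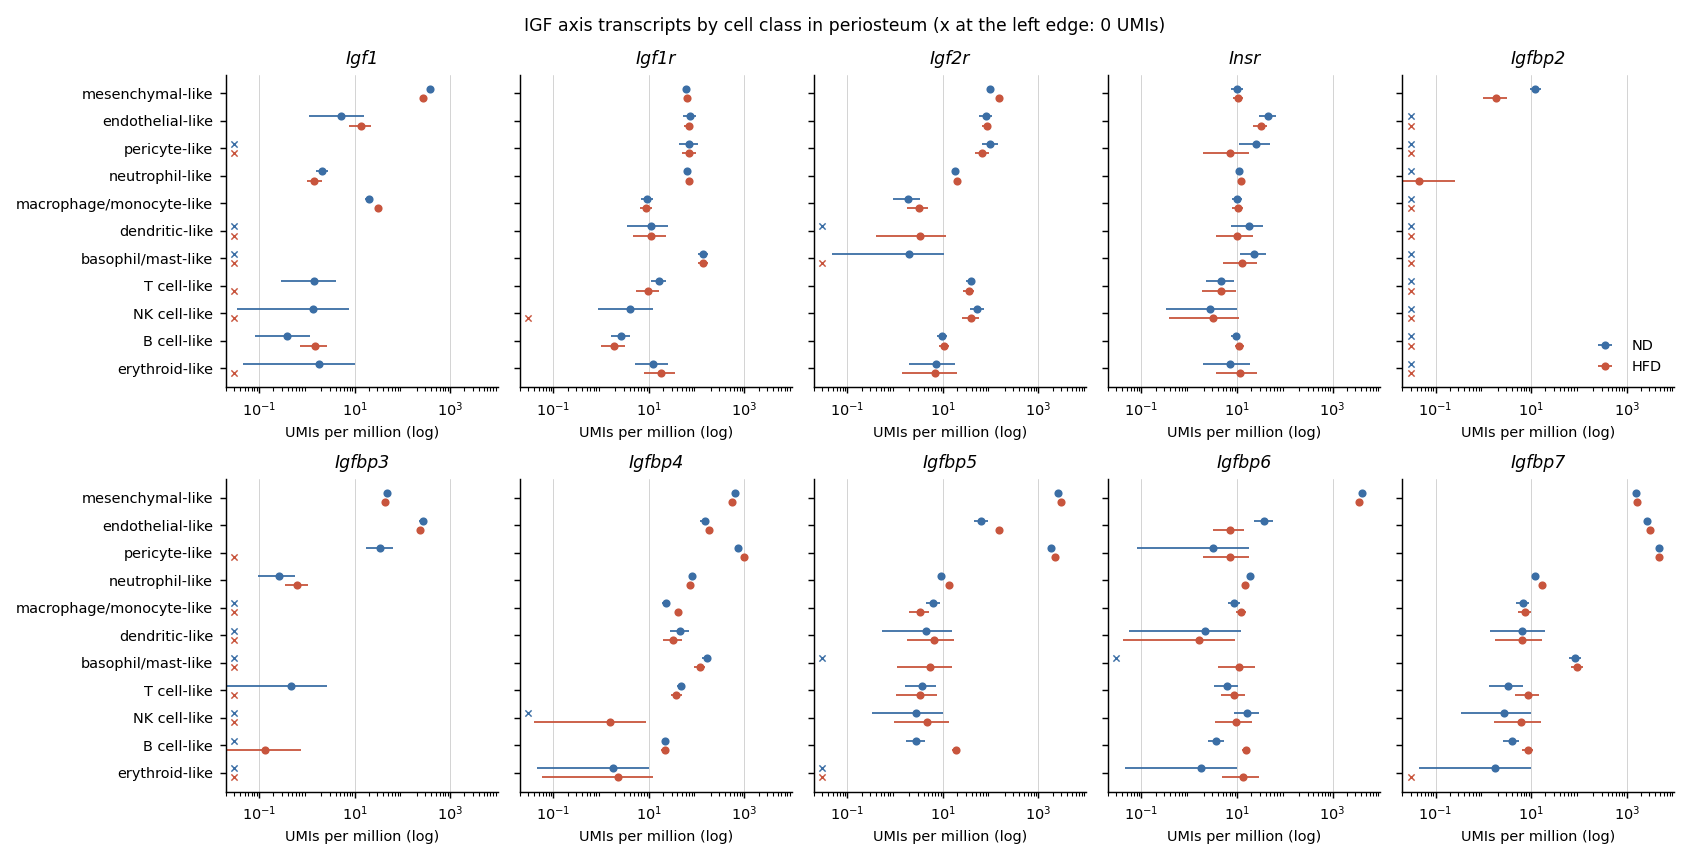
Level of each gene in UMIs per 1000000 UMIs (log axis) for 11 named cell classes in the ND (blue) and HFD (red) libraries, with bars for the 95% counting interval and a cross at the left edge for 0 UMIs. Igf1 and Igfbp6 peaked in mesenchymal-like cells, Igfbp3 in endothelial-like cells, Igfbp7 in pericyte-like cells and Igf1r in basophil/mast-like cells.

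Receptor transcripts were spread across classes. Igf1r, the signaling receptor of IGF1, stood highest in basophil/mast-like cells, at 139.5 UPM (109 to 175) in ND and 139.4 UPM (110.0 to 174) in HFD, and this interval was apart from that of the next class in both libraries. Endothelial-like, pericyte-like, neutrophil-like and mesenchymal-like cells followed and overlapped in turn, between 59.2 and 73.9 UPM in ND and between 63.4 and 71.0 UPM in HFD. B cell-like cells were low, at 2.61 and 1.86 UPM. Neutrophil-like cells were 43.7% of kept ND and 42.3% of kept HFD cells. Their Igf1r level was 2.68-fold (ND) and 2.45-fold (HFD) that of all other kept cells. Of all Igf1r UMIs, neutrophil-like cells held 71.1% in ND and 66.7% in HFD. Among them the cluster led by Acod1, Il1r2 and Il1b stood at 137 UPM (122 to 154) in ND and 136 UPM (119 to 154) in HFD, and the one led by the granule genes Elane, Prtn3 and Mpo at 33.6 UPM (29.4 to 38.2) and 46.4 UPM (40.7 to 52.6).

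Igf2r stood at 97.4 UPM (88.8 to 107) in ND and 147 UPM (138 to 156) in HFD mesenchymal-like cells. In ND it overlapped with pericyte-like cells (98.2 UPM, 66.7 to 139) and endothelial-like cells (79.2 UPM, 57.8 to 106). In HFD the mesenchymal-like level was apart from the endothelial-like (82.9 UPM, 66.9 to 102) and pericyte-like levels (65.7 UPM, 46.2 to 90.5). NK cell-like cells (52.4 and 39.0 UPM) and T cell-like cells (38.8 and 34.8 UPM) followed, while basophil/mast-like cells, with the highest Igf1r level, had 1 Igf2r UMI in ND and none in HFD.

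Insr was sparse. Its highest level was in endothelial-like cells, at 44.0 UPM (28.5 to 65.0) in ND and 31.2 UPM (21.7 to 43.4) in HFD, and the neighbours in the order overlapped in both libraries. Mesenchymal-like cells stood at 10.0 UPM (7.40 to 13.3) in ND and 10.6 UPM (8.30 to 13.3) in HFD, close to the 9.40 and 11.3 UPM of B cell-like cells.

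The binding protein genes differed in level between the stroma and the vessels, and some were high in both. IGFBP6 prefers IGF2 as its ligand. Its gene stood at 4080 UPM (4023 to 4138) in ND and 3657 UPM (3613 to 3702) in HFD mesenchymal-like cells, which held 97.2% and 97.8% of all Igfbp6 UMIs. The next class reached 37.0 UPM in ND and 15.6 UPM in HFD. Inside the mesenchymal-like cells Igfbp6 was at 6269 and 6244 UPM in tenocyte-like cells, at 4123 and 4034 UPM in Pi16/Dpp4 fibroblast-like cells, and at only 361 (311 to 417) and 399 UPM (363 to 438) in Postn-high osteogenic-like cells. In the finer clustering described below it was at 4701 and 5995 UPM in Pi16/Dpp4 and at 3536 and 2765 UPM in Col15a1/Ccl11 fibroblast-like cells, with ratios on opposite sides of 1.

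Igfbp5, whose protein binds the bone matrix, was shared by mesenchymal-like cells (2568 UPM in ND, 2523 to 2614, and 2971 UPM in HFD, 2931 to 3012) and pericyte-like cells (1875 UPM, 1727 to 2032, and 2194 UPM, 2073 to 2320). Tenocyte-like cells had the highest level of the 3 named subclusters, 3532 and 4856 UPM, and osteogenic-like cells the lowest, 1038 and 817 UPM. In the finer clustering, ND tenocyte-like (3483 UPM, 3376 to 3592) and Pi16/Dpp4 fibroblast-like cells (3420 UPM, 3319 to 3524) overlapped. In HFD they stood at 4903 and 4126 UPM. Col15a1/Ccl11 fibroblast-like cells were at 1458 UPM in ND and 1357 UPM in HFD. Igfbp4 had another order, with 729 UPM (637 to 829) in ND and 978 UPM (898 to 1063) in HFD pericyte-like cells. Mesenchymal-like cells had 626 UPM (604 to 649) in ND, where the intervals overlapped, and 560 UPM (542 to 578) in HFD. Igfbp4 was higher in Pi16/Dpp4 fibroblast-like cells (866 and 779 UPM) than in tenocyte-like (428 and 532 UPM) or osteogenic-like cells (150 and 139 UPM).

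Igfbp7, which codes for a secreted protein of vessel walls with low affinity for IGFs, was highest in pericyte-like cells, at 4846 UPM (4606 to 5095) in ND and 4686 UPM (4509 to 4868) in HFD. Endothelial-like cells had 2686 UPM (2553 to 2824) and 3100 UPM (2998 to 3205), and mesenchymal-like cells 1571 and 1671 UPM. These 3 classes were apart from each other in both libraries. In the finer clustering of mesenchymal-like cells, the 7 ND and 15 HFD chondrocyte-like cells had 4250 and 5302 UPM.

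Igfbp3 had its highest level in endothelial-like cells, at 268 UPM (227 to 314) in ND and 231 UPM (204 to 261) in HFD, against 46.6 and 42.4 UPM in mesenchymal-like cells. IGFBP3 is the main IGF carrier of blood plasma. Of the mesenchymal-like subclusters, tenocyte-like cells had 112 UPM (93.2 to 133) in ND and 130 UPM (113 to 149) in HFD. The osteogenic-like subcluster had 0 UMIs in 58 ND cells and in 128 HFD cells, which allows up to 5.92 and 2.72 UPM.

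Igfbp2 had few counts, with 59 UMIs in ND and 14 in HFD over all kept cells. In ND, 53 of the 59 lay in a single tenocyte-like cell. IGFBP2 binds IGF2 strongly and is known from fetal tissue and serum. All 59 ND UMIs and 13 of the 14 HFD UMIs were in mesenchymal-like cells.

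Within neutrophil-like and within B cell-like cells, Igfbp4 was highest in clusters led by genes of early blood cell stages. In neutrophil-like cells it was at 78.7 UPM in ND and 73.8 UPM in HFD, but the cluster led by Elane, Prtn3 and Mpo held 213 UPM (202 to 224) and 230 UPM (217 to 243). The cluster led by Camp, Ngp and Ltf with Fcnb, a gene of granule-forming stages, had 70.8 and 93.5 UPM. In the 4 other neutrophil-like clusters with over 200 cells in each library the levels ran from 2.85 to 21.04 UPM. In B cell-like cells it was concentrated likewise in the clusters led by the pre-B receptor genes Vpreb1 and Igll1, at 66.0 and 42.02 UPM in the cycling one and at 42.4 and 105 UPM in the other, against at most 8.08 UPM in the rest. Basophil/mast-like cells had 162 UPM (130 to 201) in ND and 118 UPM (90.8 to 150) in HFD. Endothelial-like cells had 151 UPM (121 to 187) in ND and 185 UPM (161 to 212) in HFD.

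**Figure D2:**
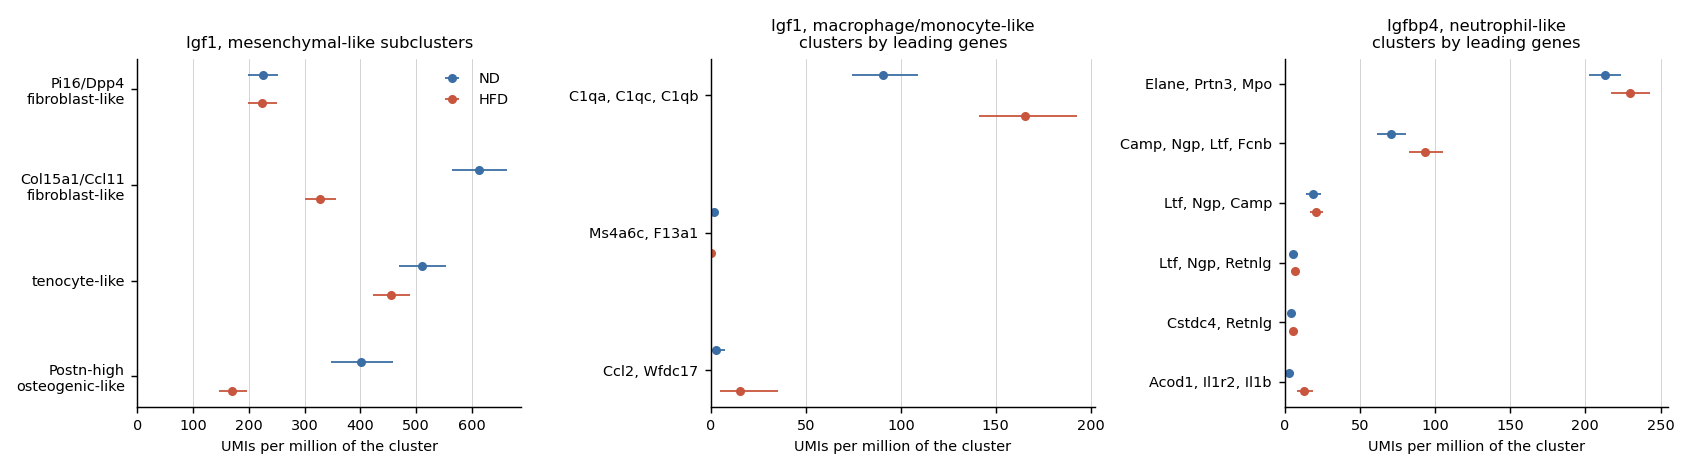
Igf1 in 4 mesenchymal-like subclusters and 3 macrophage/monocyte-like clusters, and Igfbp4 in 6 neutrophil-like clusters, ND in blue and HFD in red. Levels are UMIs per 1000000 UMIs of the cluster with 95% counting intervals. Pi16/Dpp4 (97 ND and 112 HFD cells) and Col15a1/Ccl11 fibroblast-like cells are those of the finer clustering. Tenocyte-like and osteogenic-like cells are those of the coarser clustering, whose larger, undivided Pi16/Dpp4 subcluster is not drawn. Among the 3 macrophage/monocyte-like clusters alone, Igf1 was highest in the one at 90.4 and 165 UPM. Among the 6 neutrophil-like clusters, Igfbp4 was highest in the Elane, Prtn3 and Mpo cluster (213 and 230 UPM). A neutrophil-like cluster with 9 HFD cells is not drawn.

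Set against all other kept cells, 8 of the 10 genes were at least 4-fold higher in ND mesenchymal-like cells, where 15.2% of 13034 genes were, and 7 of the 9 with enough UMIs were so in HFD, where 17.3% of 13283 genes were. Igf1r and Insr were the exceptions in both libraries. The ND count includes Igfbp2, which rested on 1 cell. In endothelial-like cells 3 genes passed in ND (Igfbp3, Igfbp7 and Insr, background 9.25%) and 2 in HFD (Igfbp3 and Igfbp7, background 8.63%). In pericyte-like cells 5 passed in ND (Igf2r, Igfbp3, Igfbp4, Igfbp5 and Igfbp7, background 8.69%) and 3 in HFD (Igfbp4, Igfbp5 and Igfbp7, background 7.66%). Igf2r passed there in ND at 4.00-fold, just at the limit, and 10 of the 11 Igfbp3 UMIs behind that gene's pass lay in 1 cell.

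The make-up of the binding protein pool, the summed UMIs of Igfbp2 to Igfbp7, differed by class and is compared for the same gene only. Igfbp7 made up 83.8% (82.0 to 85.5, Clopper-Pearson) of the pool in ND and 84.4% (83.3 to 85.5) in HFD endothelial-like cells, and 64.7% and 59.6% in pericyte-like cells. In Pi16/Dpp4 fibroblast-like cells it made up 16.5% and 18.5%. In the finer clustering the Igfbp7 level was 798 and 870 UPM in Pi16/Dpp4 and 2267.5 and 2348 UPM in Col15a1/Ccl11 fibroblast-like cells. Igfbp6 made up 45.8% and 43.9% of the pool in Pi16/Dpp4 fibroblast-like cells, 50.1% and 45.5% in tenocyte-like cells, and 17.3% (15.04 to 19.7) and 21.9% (20.1 to 23.8) in osteogenic-like cells. Igfbp5 made up 49.6% and 44.8% in osteogenic-like cells against 27.8% and 28.8% in Pi16/Dpp4 fibroblast-like cells. The pool itself was 2091 UPM in ND and 1823 UPM in HFD osteogenic-like cells, and 12523 and 13712 UPM in tenocyte-like cells.

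**Figure D3:**
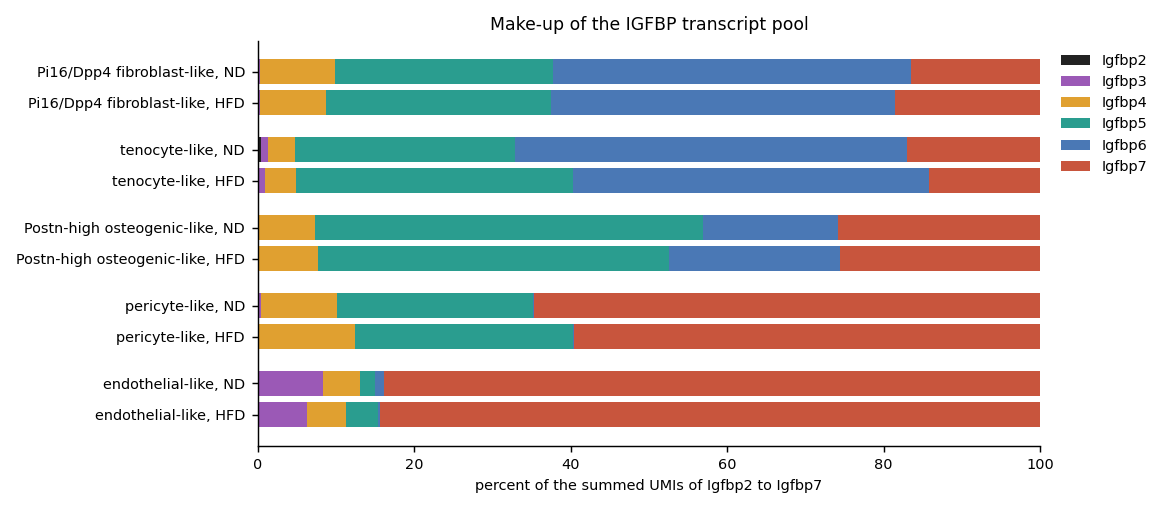
Share of each binding protein gene in the summed UMIs of Igfbp2 to Igfbp7 (percent) for 3 mesenchymal-like subclusters, pericyte-like and endothelial-like cells, 1 bar per library. Igfbp7 filled over 80% of the endothelial-like bars. The Igfbp6 share was below 22% in osteogenic-like cells and above 43% in the other mesenchymal-like subclusters drawn. Unnamed subclusters are not drawn.

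Between the diets, most of the axis in mesenchymal-like cells differed by less than 1.5-fold, the size fixed for naming a difference, which also needed at least 50 UMIs over both libraries. Of the 10 genes, 1 was higher by that size in HFD and 1 was lower, where 5.69% of 10795 genes were higher and 3.95% lower. The median log2 ratio of the 10 was -0.03, against 0.05 over all these genes. Ratios are given with exact conditional binomial 95% intervals.

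Igf2r was the gene past the fold upward. Its 97.4 UPM in ND and 147 UPM in HFD gave a ratio of 1.51 (1.35 to 1.68), just over the limit, and values between 1.44 and 1.50 under 7 other settings did not pass it. After thinning each cell to 1000 UMIs, an Igf2r UMI was found in 10.0% (7.29 to 13.4) of ND and 17.9% (15.1 to 21.02) of HFD mesenchymal-like cells, against 1.19% and 1.16% of B cell-like cells, given for comparison. Thinning left out 0 ND and 5 HFD mesenchymal-like cells with fewer UMIs. Without thinning the shares were 53.1% and 64.5% against 4.48% and 4.68%, at median depths of 10666 and 9541.5 UMIs (3889 and 3822 in B cell-like cells). By subcluster the level was 80.6 and 137 UPM in Pi16/Dpp4 fibroblast-like cells, a ratio of 1.70 (1.43 to 2.03). It was 142 and 179 UPM in tenocyte-like cells, a ratio of 1.26 (1.04 to 1.54), and 154 and 187 UPM in osteogenic-like cells, a ratio of 1.21 (0.931 to 1.60). All 3 ratios lay above 1, and the difference among them was not tested. In the finer clustering described below, Igf2r was at 61.7 UPM (48.7 to 76.9) and 111 UPM (93.7 to 131) in Pi16/Dpp4 fibroblast-like cells. Col15a1/Ccl11 fibroblast-like cells had 106 UPM (86.6 to 128) and 143 UPM (126 to 163). An unnamed finer subcluster of 19 ND and 51 HFD cells, with medians of 2080 and 2000 UMIs, had 1 and 42 Igf2r UMIs. The antisense partner of Igf2r, Airn, named here for that overlap, had 12.3 UPM in ND and 22.6 UPM in HFD, a ratio of 1.83 (1.35 to 2.51). By subcluster Airn was at 8.14 and 25.5 UPM in Pi16/Dpp4 fibroblast-like cells, a ratio of 3.13 (1.88 to 5.46). It was at 21.1 and 22.5 UPM in tenocyte-like cells, a ratio of 1.07 (0.621 to 1.86), and at 17.8 and 30.8 UPM in osteogenic-like cells, a ratio of 1.74 (0.816 to 4.12). How reads were divided between Igf2r and Airn was not tested.

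Igf1 lay on the other side at 0.721 (0.676 to 0.769), short of the 1.5-fold limit over all mesenchymal-like cells, and its subclusters differed in size. In osteogenic-like cells 400.5 UPM (347 to 460) in ND stood against 170.5 UPM (147 to 197) in HFD, a ratio of 0.426 (0.347 to 0.522), with a UMI in 26 of 58 and 34 of 128 cells. In tenocyte-like cells it was 511 and 454 UPM, a ratio of 0.890 (0.797 to 0.994). In Pi16/Dpp4 fibroblast-like cells it was 393 and 285 UPM, a ratio of 0.724 (0.660 to 0.795). A finer clustering at resolution 0.5 named a Col15a1/Ccl11 fibroblast-like subcluster (91 and 156 cells) beside a smaller Pi16/Dpp4 one (97 and 112 cells). The first had 612 UPM (564 to 663) in ND and 327 UPM (301 to 356) in HFD, a ratio of 0.535 (0.475 to 0.601), while the smaller Pi16/Dpp4 subcluster had 224.5 and 223.5 UPM, a ratio of 0.995 (0.843 to 1.18). The subcluster of 58 and 128 cells had the same Igf1 counts in the finer clustering but stayed unnamed there. More of its leading genes there were osteoblast markers (Ibsp, Bglap, Alpl and Bglap2) than Postn-high osteogenic markers (Postn, Ostn and Tnn). With each cell thinned to 1000 UMIs, an Igf1 UMI was found in 23.2% (19.2 to 27.6) of ND and 19.5% (16.6 to 22.8) of HFD mesenchymal-like cells, shares whose intervals overlap, and in 0% (0 of 1516, which allows up to 0.198%) and 0.136% of B cell-like cells. Without thinning the mesenchymal-like shares were 64.8% and 53.9%.

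The gene past the fold downward was Igfbp2, at 12.3 UPM in ND and 1.86 UPM in HFD. It reached 50 UMIs only through ND, where 1 cell held 53 of its 59 UMIs, and without the highest cell of each library the ratio turned to 1.25. The other 7 genes lay between 0.894 and 1.16. Igfbp5 was at 1.16 (1.13 to 1.18), Igf1r at 1.07 (0.922 to 1.25), Igfbp7 at 1.06 (1.03 to 1.09), Insr at 1.05 (0.723 to 1.55), Igfbp3 at 0.910 (0.763 to 1.09), Igfbp6 at 0.896 (0.880 to 0.913) and Igfbp4 at 0.894 (0.852 to 0.938). The counting interval excludes 1 for Igfbp4, Igfbp5, Igfbp6 and Igfbp7, but it holds no spread between cells or between mice.

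RNA of other cell types and of dissociation genes also differed between the libraries in mesenchymal-like cells. Summed over 13 neutrophil markers it was 19613 UPM in ND and 9170 UPM in HFD, with none of the 13 higher in HFD, and S100a9 alone was at 8225 and 3963 UPM. The 13 macrophage/monocyte markers summed to 781 and 283 UPM, the 10 erythroid markers to 77.1 and 448 UPM, and the 12 B cell markers to 745 and 702 UPM. The 8 skeletal muscle markers had 48 and 63 UMIs in all. The 20 dissociation and immediate-early genes summed to 30399 UPM in ND and 23139 UPM in HFD, with none higher in HFD. Most S100a9 UMIs of the class lay in its larger unnamed subcluster (41 ND and 45 HFD cells), 32038 of 39350 in ND and 20860 of 27742 in HFD. The neutrophil markers summed to 2088 and 1203 UPM in Pi16/Dpp4 fibroblast-like cells and to 12075 and 1930 UPM in tenocyte-like cells. In the osteogenic-like cells, where Igf1 differed most, the neutrophil markers went the other way (1732 and 7210 UPM) and the dissociation genes stood at 25086 and 15237 UPM. Their part in the differences was not tested.

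**Figure D4:**
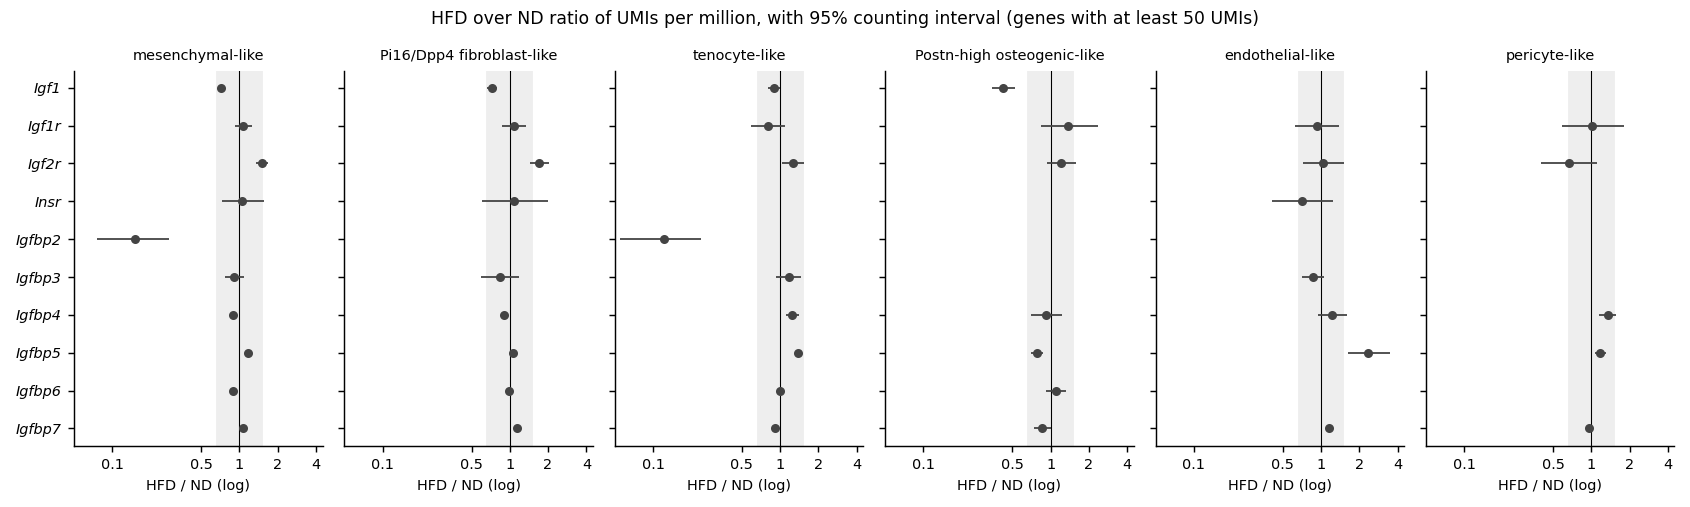
HFD over ND ratio of UMIs per 1000000 UMIs (log axis) for each gene with at least 50 UMIs, in mesenchymal-like cells, their 3 named subclusters, endothelial-like and pericyte-like cells, with bars for the 95% counting interval and a grey band for ratios within 1.5-fold. Points outside the band are Igf2r, at 1.51 in mesenchymal-like and 1.70 in Pi16/Dpp4 fibroblast-like cells, Igf1 at 0.426 in osteogenic-like cells, Igfbp5 at 2.36 in endothelial-like cells, and Igfbp2, whose ND counts lay mostly in 1 cell.

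Counted by subcluster, 1 of 9 genes with enough UMIs was past the fold upward and 0 downward in Pi16/Dpp4 fibroblast-like cells, where 6.93% and 3.41% of all genes were. In tenocyte-like cells 0 of 9 were higher and 1 was lower (Igfbp2), against 7.47% and 5%. In osteogenic-like cells 0 of 7 were higher and 1 was lower (Igf1), against 8.71% and 5.66%. Igfbp5 was at 3532 and 4856 UPM in tenocyte-like cells, a ratio of 1.37 (1.32 to 1.43), and at 1038 and 817 UPM in osteogenic-like cells, a ratio of 0.788 (0.706 to 0.879). Neither passed the fold. The larger unnamed subcluster, of 41 ND and 45 HFD cells, had 45.3% of its cells among the highest doublet scores. There 3 of 7 genes were higher and 2 lower, against 9.37% and 9.24% of all genes. Ratios were 2.49 (1.63 to 3.89) for Igf2r, 1.94 (1.81 to 2.09) for Igfbp7, 0.622 (0.464 to 0.831) for Igf1 and 0.610 (0.519 to 0.716) for Igfbp4. Igf1r was also higher, at 46.1 and 75.3 UPM from 33 and 58 UMIs. The Col1a1 level of this subcluster was 2116 UPM in ND and 13033 UPM in HFD. Its leading genes included the chondrocyte markers Col2a1 and Acan and the neutrophil markers Retnlg and Ngp. The finer clustering named 7 ND and 15 HFD chondrocyte-like cells and left 34 and 31 cells led by neutrophil genes unnamed. Igfbp7 was at 4250 and 5302 UPM in the first and at 1161 and 1496 UPM in the second. In the second, 2 of 7 genes were higher and 0 lower, against 7.97% and 6.99%. The part of unequal shares of such cells in the ratios was not tested.

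In endothelial-like cells 1 of 7 genes was higher and 0 lower, where 6.46% and 4.95% of genes were. The 1 was Igfbp5, with 36 UMIs in 6 ND cells and 168 UMIs in 21 HFD cells, a ratio of 2.36 (1.64 to 3.49). Single cells held 17 of the 36 and 59 of the 168 UMIs, and the ratio was 31.1 without the cells of highest doublet score. No minimum of UMIs was set for that last value, so it is not read as the size of a difference. The pericyte markers summed to 132 UPM in ND and 430 UPM in HFD endothelial-like cells. Their part in the Igfbp5 ratio was not tested. Igfbp7 was at 1.15 (1.09 to 1.23) and Igfbp3 at 0.863 (0.703 to 1.06). In pericyte-like cells 0 of 5 genes passed in either direction, against 7.19% and 6.95%, though Igf2r, at 98.2 and 65.7 UPM from 31 and 37 UMIs, stood just inside the lower limit at 0.669 (0.404 to 1.11). Igfbp4 was at 1.34 (1.15 to 1.57).

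In macrophage/monocyte-like cells 2 of 7 genes were higher and 1 was lower, where 2.70% and 4.34% of genes were. Igf1 had 119 UMIs in ND and 172 in HFD, a ratio of 1.58 (1.24 to 2.01), and Igfbp4 135 and 224 UMIs, a ratio of 1.81 (1.46 to 2.26). In the C1qa, C1qc and C1qb cluster, of 90 ND and 91 HFD cells, Igfbp4 was at 63.5 UPM (50.2 to 79.3) and 135 UPM (113 to 159). The cluster led by Ccl2 and Wfdc17 held 113 ND but 37 HFD cells, so that the class was not made of the same shares of clusters in both libraries. The dissociation genes summed to 22247 and 12324 UPM in this class and the 13 neutrophil markers to 5642 and 2612 UPM, 2 of them higher in HFD. Their part in the ratios was not tested. Igfbp5 had 38 UMIs in ND, 26 of them in 1 cell, and 18 in HFD, and its ratio of 0.518 reversed without that cell.

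Neutrophil-like cells had 0 of 8 genes past the fold in either direction, where 1.79% of genes were higher and 6.48% lower. The median log2 ratio over all genes of this class was -0.13, so that ratios there are best read against that shift. Igf1r was at 63.1 UPM (59.9 to 66.5) in ND and 71.0 UPM (67.5 to 74.6) in HFD, and Igfbp5, at 8.95 and 13.4 UPM, stood just inside the limit at 1.50 (1.25 to 1.80), as did Igfbp7, at 11.8 and 17.2 UPM, with 1.45 (1.24 to 1.70). With the median ratio set to 1 both passed it, at 1.64 and 1.59. The 14 mesenchymal markers summed to 150.4 UPM in ND and 237 UPM in HFD in these cells, 10 of them higher in HFD, and Col1a1 had 227 and 731 UMIs. A neutrophil-like cluster led by Ltf and Retnlg held 184 ND but 9 HFD cells. The part of these in the ratios was not tested.

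In B cell-like cells 3 of 6 genes were higher and 0 lower, where 2.24% and 4.05% of genes were. They were Igfbp5 (2.74 and 18.6 UPM, a ratio of 6.77, 4.26 to 11.3), Igfbp6 (3.66 and 15.6 UPM, a ratio of 4.28) and Igfbp7 (3.92 and 8.48 UPM, a ratio of 2.17). The stromal genes Col1a1 (5.35 and 26.0 UPM) and Sparc (9.53 and 26.0 UPM) were higher there as well, and the 14 mesenchymal markers summed to 91.9 and 172 UPM, 11 of them higher in HFD. One cell held 50 of the 140 HFD Igfbp5 UMIs. B cell-like cells were set beside the shares of cells with an Igf1 or Igf2r UMI for comparison. For Igf2r they are not a floor, since it stood at 9.66 and 10.6 UPM in them and at 1.83 and 3.09 UPM in macrophage/monocyte-like cells. The Igfbp5, Igfbp6 and Igfbp7 UMIs were not read as expression by B cells, and their source was not tested. T cell-like cells had Igf1r at 16.3 UPM in ND and 9.84 UPM in HFD, a ratio of 0.602 (0.305 to 1.13) from 50 UMIs. After thinning, which leaves fewer UMIs and had no minimum set, the ratio was 1.08. Of the 2 T cell-like clusters, one held 171 ND and 160 HFD cells and the other 122 and 44.

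Around the axis, 48 further genes of IGF signaling were counted from lists of hormone inputs, other binding proteins, binding protein proteases, receptor adaptors, the PI3K-AKT-FOXO arm and IGF2 mRNA binding proteins. In mesenchymal-like cells 38 of them had at least 50 UMIs, of which 2 were higher and 2 lower by 1.5-fold in HFD, near the 5.69% and 3.95% of all genes. Both lower genes are targets of growth hormone signaling that restrain it. Socs2 was at 65.8 UPM in ND and 31.6 UPM in HFD, a ratio of 0.480 (0.402 to 0.571), and stood at 0.510 (0.391 to 0.662) in Pi16/Dpp4 fibroblast-like, 0.533 (0.388 to 0.729) in tenocyte-like and 0.664 (0.396 to 1.13) in osteogenic-like cells. Cish was at 8.15 and 3.86 UPM, a ratio of 0.473 (0.279 to 0.793). By subcluster Cish was at 0.867 (0.359 to 2.14) in Pi16/Dpp4 fibroblast-like cells, from 11 and 13 UMIs. In tenocyte-like cells it was at 0.518 (0.224 to 1.17), from 16 and 12 UMIs, and osteogenic-like cells had 5 and 1 UMIs. In endothelial-like cells Socs2 was at 106 and 108 UPM, a ratio of 1.02 (0.743 to 1.42). The growth hormone receptor gene Ghr was at 48.7 and 67.3 UPM in mesenchymal-like cells, a ratio of 1.38 (1.18 to 1.62). By subcluster Ghr was at 1.60 (1.22 to 2.12) in tenocyte-like, 1.18 (0.918 to 1.51) in Pi16/Dpp4 fibroblast-like and 1.16 (0.754 to 1.84) in osteogenic-like cells.

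The higher genes were Pappa2, which codes for a protease that cleaves binding proteins, at 5.64 and 12.6 UPM, a ratio of 2.23 (1.43 to 3.57), and Grb14, an adaptor that inhibits the insulin receptor, at 8.15 and 14.6 UPM, a ratio of 1.79 (1.22 to 2.66). Pappa2 lay mostly in tenocyte-like cells, with 24 of its 27 ND and 68 of its 88 HFD UMIs. Grb14 was at 0.847 (0.376 to 1.93) in Pi16/Dpp4 fibroblast-like cells, 4.38 (1.29 to 23.1) in tenocyte-like cells from 3 and 19 UMIs, and 1.36 (0.793 to 2.42) in osteogenic-like cells, which held 19 of its 39 ND and 56 of its 102 HFD UMIs. The related Pappa stood at 10.0 and 8.71 UPM, a ratio of 0.869 (0.585 to 1.30). One cell held 22 of its 48 ND UMIs, and without the highest cell of each library the ratio was 1.42. The second ligand gene, Igf2, was at 66.9 and 77.6 UPM, a ratio of 1.16 (1.008 to 1.34), mostly in tenocyte-like cells (215 and 260 UPM), and at 181 and 153 UPM in endothelial-like cells. By subcluster the Igf2 ratio was 2.00 (1.21 to 3.43) in Pi16/Dpp4 fibroblast-like cells, from 22 and 60 UMIs. It was 1.21 (1.03 to 1.42) in tenocyte-like and 0.920 (0.539 to 1.61) in osteogenic-like cells. The insulin receptor substrates stood at 21.7 and 21.7 UPM for Irs1 and at 106 and 83.1 UPM for Irs2, whose highest level in the stroma and vessels was in pericyte-like cells (399 and 387 UPM).

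In the other classes few of the 48 passed. Those named next were chosen after their values were seen. In endothelial-like cells 2 of 21 were higher (Htra1 and Pik3cb) and 1 lower (Pik3r1), where 6.46% and 4.95% of all genes were. In pericyte-like cells 0 of 12 were higher and 1 lower (Akt1), against 7.19% and 6.95%. In macrophage/monocyte-like cells 1 of 27 was higher (Gab1) and 2 lower, against 2.70% and 4.34%, of which Irs2 was at 55.1 and 33.8 UPM and Ctsd, a lysosomal protease, at 545 and 345 UPM. In neutrophil-like cells 1 of 30 was higher (Htra1) and 1 lower (Grb10), against 1.79% and 6.48%. In B cell-like cells 0 of 26 passed in either direction, against 2.24% and 4.05%.

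Across the 11 named classes and 5 mesenchymal-like subclusters of both libraries (32 points that share libraries, and of which the subclusters are parts of 1 class), the genes most like each member by Pearson r of log2(UPM + 10) are given as a description. Igf1 was closest to Serpinf1 (0.97), Bicc1 (0.97) and Smoc2 (0.97), and Igfbp6 to Sfrp4 (0.98), Abi3bp (0.98) and Glt8d2 (0.97). Igfbp5 was closest to Serping1 (0.98), Cc2d2a (0.98) and the matrix proteoglycan gene Bgn (0.97). Igfbp7 was closest to Cavin3, Cavin1 and Lamb2 (0.96 each), and Igfbp3 to Jcad, Tmem204 and Prickle1 (0.94 each). Igfbp4 was closest to Tgfbr3, Igfbp7 and Cebpd (0.90, 0.90 and 0.89), the only case where a member was named for another. The receptors were less closely matched, Igf2r by Hdgfl3, Camk2n1 and Eva1b (0.90, 0.90 and 0.89), Igf1r by Syne1, Ier3 and Cpne2 (0.86, 0.85 and 0.84) and Insr by Mospd2, Traf7 and Cdipt (0.79, 0.75 and 0.73). Igfbp2, with its few UMIs, was closest to Fbxo2, Nppc and Vipr2 (0.84, 0.84 and 0.83). Of these 30 genes, 12 were shared with the list made with a pseudocount of 1.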

How the data were processed

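Periosteal cells of mice on 2 diets were profiled by droplet single-cell RNA sequencing. The deposited counts are whole UMIs per gene and barcode, made by the authors with Cell Ranger 6.0.1 on mm10 per the labels, as 1 matrix per diet that pools the mice. No barcode in either matrix had fewer than 500 UMIs. Levels are sums of UMIs per class over all UMIs of that class.

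Cells with more than 500 and fewer than 8000 genes and under 20% mitochondrial UMIs were normalised with SCTransform (Seurat 5.3.0, sctransform 0.4.2, R 4.3.3), with cell cycle scores regressed out, and clustered on 30 principal components at resolution 0.5. Mesenchymal-like cells were clustered again at resolution 0.2, and at 0.5 as an alternative. Clusters were named from marker lists. The limits on naming were tightened after the clusters had been seen. Doublets were kept. Scrublet (scanpy 1.11.5) set thresholds that marked under 0.5% of cells, so the highest 5% of scores was left out as an alternative, a share chosen after seeing those calls.

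The genes and lists were chosen with earlier results of these data known. Named were all 10 genes in each class, genes of the signaling lists past 1.5-fold in mesenchymal-like cells with at least 50 UMIs plus Igf2, Ghr, Irs1, Irs2, Pappa and Socs2, the 3 genes most like each member among those with at least 200 UMIs, and Col1a1, Sparc, S100a9 and Cd79a as references for free RNA. Single clusters and cells, Airn and Polr2b were named after their values were seen. Ratio intervals are exact conditional binomial, share intervals Clopper-Pearson and level intervals Poisson (SciPy 1.17.1). With 1 library per diet, no test was made. The scripts were tested on simulated data. Gene positions came from the GENCODE annotation of GRCm38 and promoters from RefSeq, without the 50 bases after the start. The sources do not state the strand setting of the counting, and how reads were assigned where Igf2r overlaps Airn, or Igfbp7 overlaps Polr2b (25.3 UPM in ND and 28.1 UPM in HFD mesenchymal-like cells), was not tested.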

Additional observations from a re-analysis of the deposited data

Results flagged for a closer look

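Igf1 stood on opposite sides of 1 in different cells. The HFD over ND ratio was 1.58 in macrophage/monocyte-like cells and 0.426 in Postn-high osteogenic-like cells. The difference between them was not tested, since each diet was 1 library.

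Igfbp5 gave ratios of 2.36 in endothelial-like, 0.518 in macrophage/monocyte-like and 6.77 in B cell-like cells, while mesenchymal-like cells stood at 1.16. Single cells held 59 of the 168 HFD UMIs in endothelial-like cells, 26 of the 38 ND UMIs in macrophage/monocyte-like cells and 50 of the 140 HFD UMIs in B cell-like cells. The differences between classes were not tested.

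The barcodes that failed the filter, 285 in ND and 412 in HFD, held stromal binding protein UMIs in HFD at 168 UPM for Igfbp5, 219 UPM for Igfbp6 and 172 UPM for Igfbp7. In ND they stood at 37.6, 48.6 and 90.6 UPM. These barcodes enter no level given above.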

How the results depend on the processing

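For 82 results beside the main ones, mostly ratios of single genes, 713 values were recomputed. Of these, 589 stayed within the counting interval, 118 moved further and 6 reversed. Only ratios past 1.5-fold could be counted as reversed. Any other ratio that crossed 1 was counted as staying within the interval or as moved. No paired analysis was possible because each diet was 1 matrix, and for the same reason no replicate was left out. The cause was not tested for any value below.

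In mesenchymal-like cells the Igf1 ratio was 0.652 without the highest doublet scores and 0.794 with cells weighted equally, and the Igf2r ratio 2.03 after thinning and 1.72 with cells weighted equally. The Igfbp2 ratio was 0.615 after thinning and 1.25 without the highest cell of each library. In Pi16/Dpp4 fibroblast-like cells the Igf1 ratio was 0.995 at resolution 0.5 and 0.636 without the highest doublet scores. The count of 1 gene higher in HFD became 0 with at least 200 genes per cell, under 10% mitochondrial UMIs, without the highest doublet scores, without regression of cell cycle, with the median ratio set to 1, with equal subcluster weights, without the unnamed subclusters and at 2-fold. The count of 1 gene lower became 2 without the highest doublet scores and after thinning. It became 0 without the highest cells and with a minimum of 200 UMIs. No minimum of UMIs was set for any value after thinning.

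Macrophage/monocyte-like Igfbp5 turned from 0.518 to 1.51 with at least 200 genes, 1.45 without the highest doublet scores, 1.87 with cells weighted equally and 1.54 without the highest cells. T cell-like Igf1r turned to 1.08 after thinning and tenocyte-like Igfbp2 to 1.38 without the highest cells. The mesenchymal-like shares with an Igf1 UMI were 39.4% and 30.8% at 2000 UMIs and 64.8% and 53.9% unthinned, and with an Igf2r UMI 16.5% and 25.5%, and 53.1% and 64.5%. At 8-fold over other cells, 4 genes passed in HFD mesenchymal-like cells and 1 in pericyte-like cells of each library. At 2-fold, 4 passed in HFD endothelial-like cells. With a pseudocount of 1, 12 of 30 most-like genes were shared. Leaving out the highest cells or the unnamed subclusters, and the doublet scores within subclusters, were alternatives chosen after seeing the data.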

Other observations

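Over all kept cells pooled, without regard to class, the HFD over ND ratio was 1.04 for Igf1, 1.47 for Igf2r, 1.67 for Igfbp5, 1.63 for Igfbp7 and 1.27 for Igfbp6. Mesenchymal-like cells were 6.78% of kept ND cells and 10.8% of kept HFD cells, and within them the ratios were 0.721, 1.51, 1.16, 1.06 and 0.896. The pooled and the within-class ratios of Igf1 and Igfbp6 therefore lay on opposite sides of 1. For Igf1 the pooled levels, 41.8 UPM (40.0 to 43.6) in ND and 43.7 UPM (41.8 to 45.5) in HFD, overlapped.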
